A study of Mus musculus with 10 samples.

Results

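Genes of glycolysis and of the hypoxia response were followed across naïve and lymphoma-stimulated mouse T cells. The list names 35 genes: enzymes from glucose phosphorylation to lactate, 4 enzymes that regulate this flux or the energy charge of the cell, HIF-1α with 2 of its oxygen sensors, and 12 further genes known to be induced by HIF. Each was read from the deposited table of log2 values by symbol, with the probe set of highest mean over the 10 arrays standing for the gene. Of these, 32 were measured among 18193 genes of the table. *Eno1* and *Gpi1* had no probe set under their name in the annotation used, and the probe sets of the *Gapdh* transcript carried several symbols and were left out.

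The arrays covered 5 groups of 2 samples. Naïve CD4+ and naïve CD8+ T cells were sorted from the spleen of wild-type C57BL/6 mice. CD4+ TEM (effector memory) and CD8+ TEM cells were sorted on day 25 of a culture with low-dose IL-2 and weekly additions of irradiated B lymphoma cells (LMP1/2A+), and so were CD4+ cells of a memory phenotype. The lymphoma cells arose from B cells of mice in which Cγ1-Cre switches on the Epstein-Barr virus proteins LMP1 and LMP2A, passaged through Rag2-deficient hosts. Sex and age of the T cell donors are not in the sources used here, nor whether the 2 samples of a group came from separate animals or cultures, so p-values measure the spread between these samples, which may be technical. A *Foxo1* status that differs between samples of the same group and a description as germinal center B cells stand in the sample records, and the series design names a murine BL line edited by CRISPR. These were set aside.

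Glycolysis converts glucose to pyruvate in the cytosol, and lactate dehydrogenase then regenerates NAD+ by reducing pyruvate to lactate. T cells that are activated and divide take up more glucose and run this pathway also when oxygen is present. HIF-1α is made continuously but is hydroxylated by the EGLN enzymes and degraded while oxygen is plentiful. When it persists, through low oxygen or through antigen receptor and mTOR signaling, it pairs with ARNT at sites with the core letters ACGTG or GCGTG and raises glycolytic enzymes, *Egln3* itself and genes of mitophagy, collagen hydroxylation and angiogenesis.

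The values allowed the labels to be checked. *Cd3e*, a chain of the T cell receptor complex, read 12.72 to 13.29 on the 10 arrays. *Cd4* read 11.50 to 11.89 on the 6 CD4+ arrays, 4.30 and 4.10 in naïve CD8+ and 6.51 and 6.89 in CD8+ TEM cells. *Cd8a* read 12.81 to 12.98 on the CD8+ arrays, 5.16 and 4.99 in naïve CD4+, 7.67 and 8.17 in CD4+ TEM and 3.93 and 5.38 in CD4+ memory cells. It was called higher in CD4+ TEM than in naïve CD4+ cells (2.85, SE 0.41, limma adjusted p = 0.00126). *Cd8b1* was not, at 5.63 and 5.30 in naïve CD4+ and 5.25 and 4.94 in CD4+ TEM cells (-0.37, limma adjusted p = 0.299). *Cd247*, a further T cell marker, was called lower in CD4+ TEM (-1.36, limma adjusted p = 0.00171) and CD8+ TEM cells (-1.10, limma adjusted p = 0.00312). Of 8 measured B cell markers, 4 were higher in CD4+ TEM, 4 in CD8+ TEM and 6 in CD4+ memory cells than in their naïve cells, and their summed level (log2) was 7.06 and 7.07 in naïve CD4+, 8.48 and 9.68 in naïve CD8+ and 11.004 to 11.75 in the cultured groups. *Ebf1*, an early B cell factor, read 3.71 and 2.93 in naïve CD4+, 3.40 and 5.56 in naïve CD8+ and 10.19 to 10.82 in the cultured groups, while *Pax5*, which also defines B cells, read 3.58 to 4.33 on the 10 arrays. The 3′ minus 5′ difference of the *Gapdh* control probe sets was 2.42 to 2.75 on the naïve and 0.91 to 1.72 on the cultured arrays. For the *Actb* control it was 1.46 and 1.24 in naïve CD4+, 1.48 and 1.49 in CD4+ TEM and 2.10 and 1.59 in CD4+ memory cells. In naïve CD8+ cells it was 2.13 and 1.73 and in CD8+ TEM cells 0.77 and 0.84, so for *Actb* it was lower after culture in the CD8+ lineage only. The naïve CD8+ pair stood apart in 14 immediate early and stress genes, with summed levels of 15.58 and 12.90, against 15.27 and 15.31 in naïve CD4+ and 12.03 to 12.77 in the cultured groups. The pair also differed in the summed level of 8 myeloid markers (7.99 and 9.30), with *Lyz2* at 5.20 and 8.70 and *Cd68* at 7.22 and 6.39. *Ms4a1*, a B cell marker, read 3.15 and 7.02 in the pair. The part of these differences in the results below was not tested, and fewer cells of a type and less RNA per cell cannot be told apart in bulk samples.

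Nearly the whole list was higher after culture. In CD4+ TEM cells 29 of the 32 genes were higher than in naïve CD4+ cells at an adjusted p under 0.05, where 16.4% of all genes were, and 1 was lower, where 10.1% of all genes were. In CD8+ TEM cells 28 were higher (20.9% of all genes) and 0 lower (17.2%). In CD4+ memory cells 30 were higher (13.5%) and 0 lower (9.78%). The median log2 change over the 32 genes was 2.29 in CD4+ TEM, 2.07 in CD8+ TEM and 2.16 in CD4+ memory cells, and over all genes 0.02, 0.06 and 0.08. Centering each array on its median over genes would take 0.59, 0.53 and 0.41 from these changes and leave medians of 1.702, 1.54 and 1.75. The CD4+ TEM and memory comparisons share the naïve CD4+ arrays. In all 3 comparisons 28 genes were called higher, and the 4 others were *Eno2*, *Pfkfb4*, *Pdk1* and *Hif1a*. The arrays of the groups compared did not overlap and were higher for 30 of 32 genes in CD4+ TEM cells (33.8% of all genes), 30 in CD8+ TEM cells (38.9%) and 31 in CD4+ memory cells (34.3%).

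**Figure D1:**
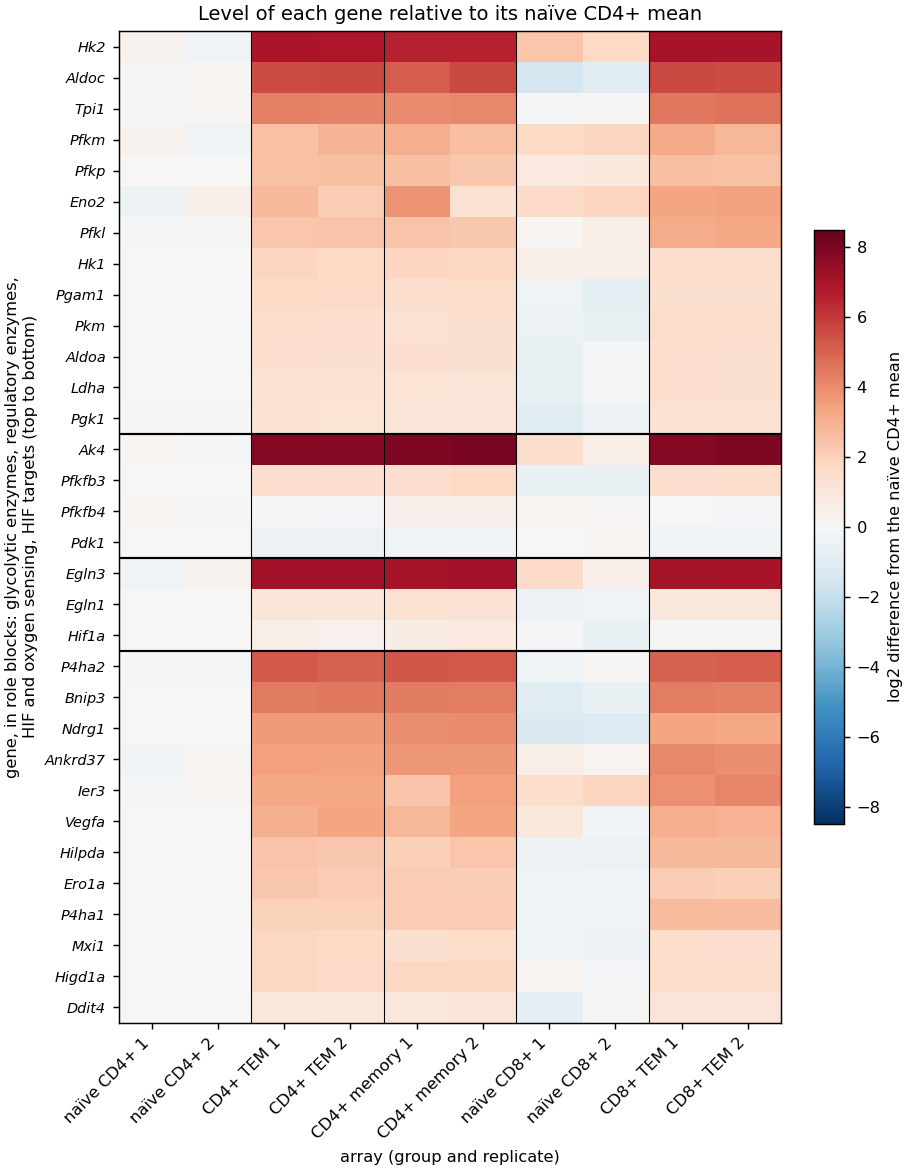
Level of each of the 32 genes on each of the 10 arrays, as the log2 difference from that gene's mean in naïve CD4+ cells (color scale), with genes in 4 blocks by role and arrays by group and replicate. The 6 arrays of cultured cells are red for most genes, the blocks differ in depth of color between genes rather than between the 3 cultured groups, and *Pfkfb4*, *Pdk1* and *Hif1a* stay pale.

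Several of the steepest rises in the table belonged to genes that read low in naïve cells. *Ak4*, an adenylate kinase of the mitochondrial matrix, read 4.15 and 3.79 in naïve CD4+, 11.74 and 11.71 in CD4+ TEM, 11.92 and 12.06 in CD4+ memory, 5.49 and 4.49 in naïve CD8+ and 11.77 and 11.93 in CD8+ TEM cells. The cultured and naïve arrays were thus far apart, and the rise was 216-fold in CD4+ TEM (log2 change 7.76, SE 0.30, adjusted p = 1.2e-06), 116-fold in CD8+ TEM (6.86, SE 0.30, adjusted p = 1.97e-06) and 259-fold in CD4+ memory cells (8.02, SE 0.30, adjusted p = 1.7e-06). For the 9 genes with a naïve CD4+ mean under 6 the log2 change in CD4+ TEM cells ranged from -0.03 to 7.76 with a median of 5.12, and for the 10 genes with a mean of 11 or more from -0.45 to 1.68 with a median of 1.21. The table holds no detection calls, and the naïve values of *Ak4* and several others of the 9 lay near or under the array medians of 4.65 to 4.75. Whether these probe sets were above background in naïve cells cannot be read from it, so their folds describe the tabled values and are no measured ratio of RNA. Whether the range of the array's signal compresses the changes of the brighter probe sets was not tested.

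Promoters are shown here because most of the list moved together and HIF recognizes a short motif. RefSeq promoter windows of assembly GRCm38.p6, from 250 bases before to 50 bases after a transcript start, were matched by symbol to 31 of the 32 genes (49 windows), and *Ndrg1* had none. ACGTG or GCGTG, searched on both strands, stood in 40 of the 49 windows (81.6%), against 43.8% of 32851 windows of all genes. By gene, 29 of 31 had it in at least 1 window (93.5%, against 46.7% of 27025 genes), and *Tpi1* and *Eno2* did not. The list was made of glycolytic enzymes and known HIF targets, so a high share can follow from that choice and is no result about these cells. The share by gene counts the motif in any window, and the listed genes had more windows each. The comparison genes were not limited to those measured on the arrays. CACGTG, which holds ACGTG on both strands and is counted for each strand, stood in 12.2% of the listed genes' windows and 7.15% of all. The windows of the list were also richer in the dinucleotide CG, with a median of 23 per window against 7, and whether this accounts for the share was not tested. Of the 28 genes called higher in all 3 comparisons 27 had a window and 26 the motif, and of the 4 others 3 had it. The 250 bases upstream are given below for *Ak4*, *Egln3*, *Bnip3* and *P4ha2*, which are among the steepest rises, for *Ldha*, which carries CACGTG at 2 places, for *Tpi1*, which rose without the motif, and for *Pdk1* and *Pfkfb4*, which hold it and were not called higher. *Ak4* has 4 windows and *Ldha* and *Pdk1* 2 each. For these the window with the most core matches was printed, so the choice itself favors the motif. The other window of *Pdk1* holds 0. Capitals mark the core letters on either strand, and the CACGTG palindrome where it occurs.
Ak4: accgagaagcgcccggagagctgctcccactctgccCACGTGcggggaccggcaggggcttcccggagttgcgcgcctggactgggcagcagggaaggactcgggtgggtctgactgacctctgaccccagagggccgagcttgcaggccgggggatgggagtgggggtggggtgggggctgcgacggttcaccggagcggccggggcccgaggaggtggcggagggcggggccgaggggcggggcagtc
Egln3: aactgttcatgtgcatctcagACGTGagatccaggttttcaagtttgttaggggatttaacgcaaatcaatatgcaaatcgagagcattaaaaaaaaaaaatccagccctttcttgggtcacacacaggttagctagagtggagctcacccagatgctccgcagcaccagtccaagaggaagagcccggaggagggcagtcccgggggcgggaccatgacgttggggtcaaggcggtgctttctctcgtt
Bnip3: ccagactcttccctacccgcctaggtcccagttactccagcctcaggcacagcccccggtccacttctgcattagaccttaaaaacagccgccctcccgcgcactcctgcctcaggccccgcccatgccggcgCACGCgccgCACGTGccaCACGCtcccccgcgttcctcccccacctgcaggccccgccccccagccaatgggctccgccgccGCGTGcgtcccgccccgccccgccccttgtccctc
P4ha2: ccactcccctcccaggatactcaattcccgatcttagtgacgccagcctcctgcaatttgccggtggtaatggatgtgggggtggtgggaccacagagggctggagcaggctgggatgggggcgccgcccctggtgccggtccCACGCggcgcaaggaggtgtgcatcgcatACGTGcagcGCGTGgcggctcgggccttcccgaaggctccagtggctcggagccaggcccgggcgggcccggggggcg
Ldha: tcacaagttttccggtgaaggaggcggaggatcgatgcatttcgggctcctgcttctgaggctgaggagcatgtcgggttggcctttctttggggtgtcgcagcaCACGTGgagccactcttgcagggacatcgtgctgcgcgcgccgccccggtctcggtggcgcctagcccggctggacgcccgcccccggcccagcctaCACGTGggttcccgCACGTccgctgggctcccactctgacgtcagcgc
Tpi1: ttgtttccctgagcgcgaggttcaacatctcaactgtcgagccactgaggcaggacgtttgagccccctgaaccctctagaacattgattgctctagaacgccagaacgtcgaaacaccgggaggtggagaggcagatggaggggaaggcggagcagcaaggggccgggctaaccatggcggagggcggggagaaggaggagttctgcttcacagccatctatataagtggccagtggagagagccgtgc
Pdk1: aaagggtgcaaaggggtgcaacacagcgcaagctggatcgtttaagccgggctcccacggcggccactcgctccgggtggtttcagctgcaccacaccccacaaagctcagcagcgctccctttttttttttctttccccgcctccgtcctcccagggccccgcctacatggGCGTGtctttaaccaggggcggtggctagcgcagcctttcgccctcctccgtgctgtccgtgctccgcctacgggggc
Pfkfb4: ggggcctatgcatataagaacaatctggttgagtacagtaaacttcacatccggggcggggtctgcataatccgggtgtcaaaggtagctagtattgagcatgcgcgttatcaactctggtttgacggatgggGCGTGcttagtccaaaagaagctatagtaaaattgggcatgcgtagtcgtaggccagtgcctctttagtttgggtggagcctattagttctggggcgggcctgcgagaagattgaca
The positions are chr4:101419453-101419702 on the plus strand for *Ak4*, chr12:54203875-54204124 on the minus strand for *Egln3*, chr7:138909507-138909756 on the minus strand for *Bnip3*, chr11:54100674-54100923 on the plus strand for *P4ha2*, chr7:46845554-46845803 on the plus strand for *Ldha*, chr6:124814159-124814408 on the minus strand for *Tpi1*, chr2:71872974-71873223 on the plus strand for *Pdk1* and chr9:108991652-108991901 on the plus strand for *Pfkfb4*. A match of letters is no evidence of binding in these cells.

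All 13 measured glycolytic enzymes were called higher in CD4+ TEM and in CD4+ memory cells, and 12 in CD8+ TEM cells. Hexokinase traps glucose by phosphorylation. *Hk2*, its inducible form, read 5.36 and 4.71 in naïve CD4+, 11.96 and 11.93 in CD4+ TEM, 11.58 and 11.59 in CD4+ memory, 7.36 and 6.70 in naïve CD8+ and 12.06 and 12.01 in CD8+ TEM cells. Naïve cells of the CD8 lineage thus started higher while the TEM arrays of both lineages lay close together, and the rise was 120-fold in CD4+ TEM (log2 change 6.91, SE 0.26, adjusted p = 1.13e-06), 93.8-fold in memory and 32-fold in CD8+ TEM cells (5.0, SE 0.26, adjusted p = 4.42e-06). *Hk1*, the constitutive form on mitochondria, rose less, by 1.77 in CD4+ TEM (SE 0.12), 1.79 in memory and 1.01 in CD8+ TEM cells (SE 0.12).

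Phosphofructokinase, the committed step, is encoded by *Pfkl*, *Pfkm* and *Pfkp*. In CD4+ TEM cells the log2 changes were 2.40 (SE 0.17) for *Pfkl*, 2.70 (SE 0.29) for *Pfkm* and 2.54 (SE 0.14) for *Pfkp*, and in CD8+ TEM cells 2.92, 1.25 and 1.68. *Pfkm* in CD8+ TEM cells was called at adjusted p = 0.00899, a call lost without CD8+ TEM replicate 1 (1.05, adjusted p = 0.0684) and without naïve CD8+ replicate 1 (1.18, adjusted p = 0.053), and with centered arrays (0.72, adjusted p = 0.0613).

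The aldolases split fructose bisphosphate into trioses. *Aldoc*, known best from brain, read 5.29 and 5.69 in naïve CD4+, 11.01 and 11.09 in CD4+ TEM, 10.63 and 11.10 in CD4+ memory, 4.08 and 4.59 in naïve CD8+ and 11.08 and 11.07 in CD8+ TEM cells. Its TEM values nearly coincided between lineages, and the rise was 47.1-fold in CD4+ TEM (5.56, SE 0.23, adjusted p = 1.88e-06) and 107-fold in CD8+ TEM cells (6.74, SE 0.23, adjusted p = 6.47e-07). The naïve CD8+ values lay under the array medians, so neither this fold nor its contrast with CD4+ cells is a measured ratio. *Aldoa*, the ubiquitous aldolase, was at 12.49 ± 0.07 (SD, n = 2) in naïve CD4+ cells and rose 2.67-fold in CD4+ TEM and 3.35-fold in CD8+ TEM cells. *Tpi1*, triose phosphate isomerase, went from 7.91 and 8.23 to 12.38 and 12.27 in CD4+ TEM cells and from 7.94 and 8.14 to 12.56 and 12.66 in CD8+ TEM cells. Its log2 changes of 4.26 in CD4+ TEM cells (SE 0.16, adjusted p = 9.84e-07) and 4.57 in CD8+ TEM cells (SE 0.16, adjusted p = 6.31e-07) had a difference that did not pass (CD4+ minus CD8+ change -0.31, adjusted p = 0.444).

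Enzymes of the later steps, bright in naïve cells already, rose by smaller factors. *Pgk1*, which makes ATP, rose 2.29-fold in CD4+ TEM and 3.77-fold in CD8+ TEM cells, *Pgam1*, the mutase, 3.13-fold and 3.77-fold, *Pkm*, pyruvate kinase, 2.75-fold and 4.31-fold, and *Ldha*, lactate dehydrogenase A, 2.33-fold and 3.47-fold. Adjusted p-values of these were between 6.92e-06 (*Pkm*, CD8+ TEM) and 0.00104 (*Ldha*, CD4+ TEM). *Eno2*, the enolase of neurons, was the least steady, at 3.91 and 4.72 in naïve CD4+, 7.08 and 6.46 in CD4+ TEM and 8.16 and 5.64 in CD4+ memory cells. It was called in CD4+ TEM (2.45, SE 0.69, adjusted p = 0.0322) and in memory cells (2.58, SE 0.69, adjusted p = 0.0297) but not in CD8+ TEM cells (1.67, SE 0.69, adjusted p = 0.0966), and the CD4+ TEM call was lost when any single naïve or TEM array was left out (2.05 to 2.86) and the memory call when any single naïve CD4+ or CD8+ TEM array was (2.18 to 2.99). The memory change was 1.33 without memory replicate 1 and 3.84 without memory replicate 2, and a fit of the compared groups alone lost the memory call (adjusted p = 0.14) and called *Eno2* in CD8+ TEM cells (adjusted p = 0.00127). Quantile normalization lost the CD4+ TEM call (2.14, adjusted p = 0.0566). The control probe sets of *Gapdh*, which were not tested, read 13.11 to 13.22 on naïve and 14.00 to 14.11 on cultured arrays at the 3′ end. The middle set read 11.29 to 11.69 and 13.40 to 13.69, and the 5′ set 10.36 to 10.80 and 12.39 to 13.09. The size of the difference thus depended on the probe set.

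**Figure D2:**
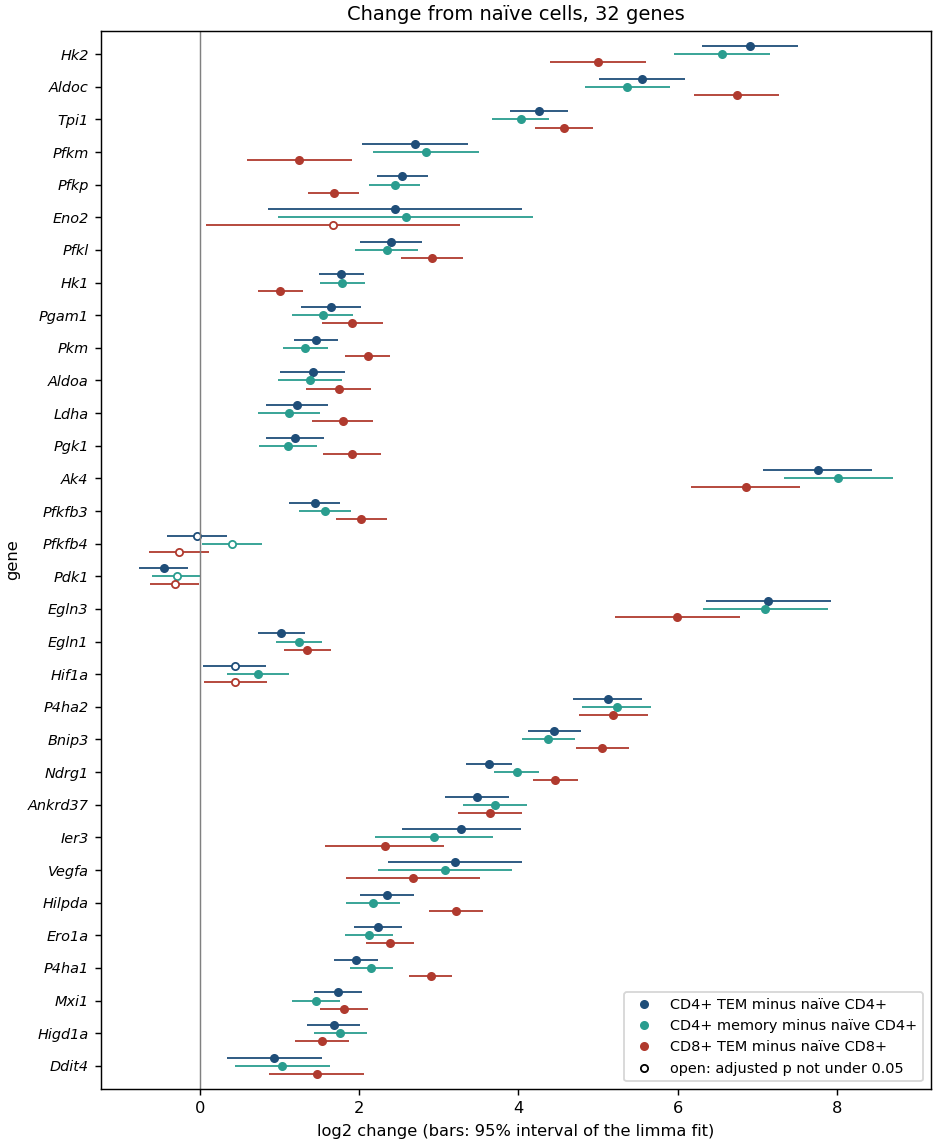
Log2 change from naïve cells for each of the 32 genes in CD4+ TEM, CD4+ memory and CD8+ TEM cells, with 95% intervals of the limma fit. Filled points passed an adjusted p of 0.05 and open points did not. The 8 open points are *Pfkfb4* in all 3 comparisons, *Pdk1* in memory and CD8+ TEM, *Hif1a* in CD4+ TEM and CD8+ TEM, and *Eno2* in CD8+ TEM cells.

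The regulatory enzymes were split. *Ak4* rose as described, and *Pfkfb3*, whose product fructose 2,6-bisphosphate activates phosphofructokinase, rose 2.71-fold in CD4+ TEM (1.44, SE 0.14), 2.96-fold in memory and 4.08-fold in CD8+ TEM cells (2.03, SE 0.14). Its relative *Pfkfb4* did not pass, with changes of -0.03 (95% interval -0.41 to 0.35) in CD4+ TEM, 0.41 (0.03 to 0.79) in memory and -0.26 (-0.64 to 0.12) in CD8+ TEM cells. It was called lower in CD4+ TEM cells with quantile normalization (-0.60, adjusted p = 0.0282) and with centered arrays (-0.62, adjusted p = 0.0153), and likewise in CD8+ TEM cells (-0.69 and -0.79). *Pdk1* encodes a kinase that shuts pyruvate dehydrogenase and is a textbook HIF target. It read 12.36 and 12.34 in naïve CD4+, 11.94 and 11.84 in CD4+ TEM, 12.01 and 12.10 in CD4+ memory, 12.29 and 12.51 in naïve CD8+ and 12.12 and 12.06 in CD8+ TEM cells. All 6 cultured arrays were below all 4 naïve arrays, by a small margin, and the fall passed in CD4+ TEM cells (-0.45, SE 0.13, adjusted p = 0.0386) and not in memory (-0.29, adjusted p = 0.166) or CD8+ TEM cells (-0.31, adjusted p = 0.107). The call in CD4+ TEM cells was lost when any single naïve CD4+, CD4+ TEM or CD8+ TEM array was left out, with changes of -0.40 to -0.50 and adjusted p from 0.0701 to 0.166. In CD8+ TEM cells the fall passed with the mean of the 4 probe sets of the gene (-0.63, adjusted p = 0.00358), with centered arrays (-0.84) and with a variance trend and robust fitting (adjusted p = 0.0159).

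*Hif1a*, which encodes HIF-1α, changed little on its brightest probe set. It read 11.74 and 11.78 in naïve CD4+, 12.25 and 12.14 in CD4+ TEM, 12.40 and 12.58 in CD4+ memory, 11.63 and 11.18 in naïve CD8+ and 11.84 and 11.87 in CD8+ TEM cells. The cultured arrays lay above their naïve arrays in each lineage, with a log2 change of 0.44 in CD4+ TEM (SE 0.17, adjusted p = 0.102), 0.45 in CD8+ TEM (SE 0.17, adjusted p = 0.074) and 0.73 in memory cells (SE 0.17, adjusted p = 0.0167). The change passed with a variance trend and robust fitting (adjusted p = 0.0298 in CD4+ TEM and 0.0195 in CD8+ TEM cells), without either naïve CD8+ array in CD4+ TEM cells (adjusted p = 0.0401) and without naïve CD8+ replicate 1 in CD8+ TEM cells (0.67, adjusted p = 0.0149). With each array centered on its median over genes the sign turned, to -0.16 in CD4+ TEM and -0.08 in CD8+ TEM cells, and the memory call was lost (0.32). It was also lost without either naïve CD4+ array (0.71 or 0.75) or memory replicate 2 (0.64). *Hif1a* has 3 further probe sets, and these rose by 0.89, 1.45 and 1.35 in CD4+ TEM and by 1.24, 1.77 and 3.23 in CD8+ TEM cells. With the mean of its 4 probe sets the rise passed in CD4+ TEM (1.03, adjusted p = 0.00459) and CD8+ TEM cells (1.67, adjusted p = 0.00021).

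The oxygen sensors EGLN1 and EGLN3 hydroxylate HIF-1α. *Egln1* rose by 1.02 in CD4+ TEM (SE 0.13), 1.24 in memory and 1.35 in CD8+ TEM cells (SE 0.13). *Egln3* read 5.34 and 5.87 in naïve CD4+, 12.74 and 12.75 in CD4+ TEM, 12.68 and 12.73 in CD4+ memory, 7.22 and 6.06 in naïve CD8+ and 12.67 and 12.61 in CD8+ TEM cells. Its 6 cultured arrays lay close together, and the rise was 141-fold in CD4+ TEM (7.14, SE 0.34, adjusted p = 3.6e-06), 137-fold in memory and 63.8-fold in CD8+ TEM cells (6.0, SE 0.34, adjusted p = 6.48e-06). The naïve CD8+ pair differed more than 2-fold on this probe set (replicate 2 minus replicate 1, -1.16). On the other probe set of *Egln3* the pair read 5.63 and 5.90. Over the 32 genes the median of replicate 2 minus replicate 1 in naïve CD8+ cells was 0.11.

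All 12 HIF targets of the list were called higher in CD4+ TEM, CD8+ TEM and CD4+ memory cells, with median log2 changes of 2.78, 2.79 and 2.56. *P4ha2*, a subunit of the prolyl hydroxylase that matures collagen, read 3.48 and 3.28 in naïve CD4+, 8.62 and 8.38 in CD4+ TEM, 8.67 and 8.56 in CD4+ memory, 3.01 and 3.48 in naïve CD8+ and 8.38 and 8.49 in CD8+ TEM cells. This was a rise of 34.8-fold in CD4+ TEM (5.12, SE 0.19, adjusted p = 9.84e-07), 37.7-fold in memory and 36.6-fold in CD8+ TEM cells (5.19, SE 0.19, adjusted p = 8.28e-07). Its naïve values lay under the array medians, and the same limit holds for these folds. *Bnip3*, a receptor for the removal of mitochondria, read 8.60 and 8.67 in naïve CD4+, 13.08 and 13.09 in CD4+ TEM, 13.05 and 12.97 in CD4+ memory, 7.77 and 8.08 in naïve CD8+ and 13.00 and 12.95 in CD8+ TEM cells. The 6 cultured arrays lay close together, and the rise was 21.9-fold in CD4+ TEM (4.45, SE 0.14) and 33.2-fold in CD8+ TEM cells (5.05, SE 0.14, adjusted p = 3.39e-07).

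Among the other targets, *Ankrd37*, an ankyrin repeat protein, rose 11.2-fold in CD4+ TEM and 12.5-fold in CD8+ TEM cells, and *Ndrg1*, a stress response gene, 12.4-fold and 22-fold. *Vegfa*, the angiogenic growth factor, rose 9.24-fold and 6.38-fold from dim naïve values of 4.63 to 5.83. Its naïve CD8+ arrays read 5.83 and 4.63, which differ more than 2-fold. On its other, dimmer probe set the log2 changes were 0.47 and 0.87. *Hilpda*, which holds back lipolysis at lipid droplets, rose 5.11-fold and 9.29-fold, and *Ero1a*, an oxidase of protein folding in the endoplasmic reticulum, 4.71-fold and 5.23-fold. *Ier3*, an early response gene, rose by 3.28 (SE 0.32) in CD4+ TEM and 2.32 (SE 0.32) in CD8+ TEM cells, with memory arrays of 8.59 and 9.65, which differ more than 2-fold. The smallest rises were those of *Mxi1*, a MYC antagonist (1.73 and 1.81), *Higd1a*, a mitochondrial membrane protein (1.68 and 1.53), and *Ddit4*, an inhibitor of mTOR complex 1 (0.94 and 1.47). The *Ddit4* call in CD4+ TEM cells (adjusted p = 0.0298) was lost when any single naïve CD4+, CD4+ TEM or CD8+ TEM array was left out (0.89 to 0.98) and with centered arrays (0.34, adjusted p = 0.231), and that in memory cells (1.03, adjusted p = 0.0225) when any single naïve CD4+ or memory array was (0.97 to 1.10) and with centered arrays (0.62, adjusted p = 0.0756).

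Between CD4+ TEM and CD4+ memory cells of day 25 none of the 32 genes passed (limma, 2 at an unadjusted p under 0.05), where 5.52% of all genes did, 3.89% higher and 1.64% lower in TEM cells. The log2 differences ran from -0.44 for *Pfkfb4* to 0.36 for *Hk2*, and for 30 genes the 95% interval lay within 2-fold in either direction, the exceptions being *Eno2* and *Ier3*. The pair at an unadjusted p under 0.05 were *Pfkfb4* (-0.44, adjusted p = 0.182) and *Ndrg1* (-0.35, adjusted p = 0.163), both lower in TEM cells. *Ndrg1* read 12.64 and 12.67 in TEM and 12.97 and 13.03 in memory cells, and it was called with centered arrays (-0.53, adjusted p = 0.0388). On 2 further probe sets of *Ero1a* TEM cells were higher than memory cells, by 0.63 and 0.98, where the brightest gave 0.11, and the mean of its probe sets passed (0.57, adjusted p = 0.0491).

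Between the naïve groups 6 genes were higher in CD8+ cells (13.9% of all genes) and 7 lower (6.65%), 13 in all against 20.5% of all genes. The arrays did not overlap and were higher in naïve CD8+ cells for 10 genes (29% of all genes) and lower for 15 (29.6%). The higher genes were *Hk2* (log2 difference 2.0, SE 0.26, adjusted p = 0.00148), *Pfkm* (1.74, SE 0.29, adjusted p = 0.00419), *Ier3* (1.67), *Ak4* (1.02), *Pfkp* (0.86) and *Hk1* (0.50). The lower genes were *Aldoc* (-1.16, SE 0.23, adjusted p = 0.0101), *Ndrg1* (-1.14, SE 0.12, adjusted p = 0.000668), *Bnip3* (-0.71), *Pgk1* (-0.70), *Pkm* (-0.58), *Pfkfb3* (-0.55) and *Egln1* (-0.43). Of these 13 calls 3 were kept under every alternative run, which included leaving out each array (*Hk2*, *Pfkm* and *Ndrg1*). Over the 32 genes the median absolute difference of the group means was 0.44 between naïve groups and 0.15 between TEM groups, against 0.29 and 0.22 over all genes. The 2 arrays of a group differed over the same genes by a median of 0.28 in naïve CD8+ cells, against 0.08 in naïve CD4+, 0.08 in CD4+ TEM and 0.06 in CD8+ TEM cells, and the distances between groups were not tested. A difference of at least 2-fold was seen for 8 genes between the naïve groups and for 0 between the TEM groups. The share of all genes at this limit is not given here, so these counts only describe the list. Several of the 8 had a naïve CD4+ mean under 6, among them *Ak4* (3.97), *Eno2* (4.32) and *Aldoc* (5.49). The TEM groups differed in *P4ha1* (0.69 higher in CD8+, SE 0.12, adjusted p = 0.0176) and *Pfkl* (0.83 higher, SE 0.17, adjusted p = 0.0314), 2 of 32 genes where 5.72% of all genes passed, 3.53% higher and 2.19% lower in CD8+ TEM cells. Both calls were lost when any single TEM array was left out, at differences of 0.66 to 0.71 and 0.78 to 0.88. They were also lost with the mean of probe sets (0.50 for *P4ha1*, 0.27 for *Pfkl*) and with centered arrays (0.47 and 0.61), where *Ndrg1* was called lower in CD8+ TEM cells instead (-0.53, adjusted p = 0.0397).

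Whether the lineages changed these genes to a different extent was tested by the difference of their naïve-to-TEM changes, which passed for 7 genes. The change was larger in CD4+ cells for 3 (8.03% of all genes) and larger in CD8+ cells for 4 (4.49%). *Hk2* had the largest difference, 1.91 (SE 0.37, adjusted p = 0.0147), and its values are given above. *Pfkp*, the platelet phosphofructokinase, read 10.14 and 10.19 in naïve CD4+, 12.66 and 12.74 in CD4+ TEM, 12.74 and 12.48 in memory, 10.96 and 11.08 in naïve CD8+ and 12.72 and 12.68 in CD8+ TEM cells (0.86, SE 0.20, adjusted p = 0.0273). *Hk1* read 9.40 and 9.35, 11.22 and 11.09, 11.19 and 11.14, 9.88 and 9.88, and 10.87 and 10.90 in the same order (0.77, SE 0.17, adjusted p = 0.026). For *Hk2* and *Pfkp* the TEM arrays of both lineages overlapped or nearly so and the naïve arrays did not, and for *Hk1* the order of the lineages turned between naïve and TEM cells.

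On the other side, *P4ha1*, a further collagen hydroxylase subunit, read 8.38 and 8.43 in naïve CD4+, 10.35 and 10.39 in CD4+ TEM, 10.53 and 10.58 in memory, 8.16 and 8.16 in naïve CD8+ and 11.06 and 11.05 in CD8+ TEM cells. Its difference of -0.93 (SE 0.17, adjusted p = 0.0116) came more from the TEM cells, where the lineages differed by 0.69, than from naïve cells, where they differed by -0.24. *Hilpda* read 7.99 and 8.0, 10.42 and 10.27, 10.01 and 10.32, 7.57 and 7.50, and 10.75 and 10.75 in that order (-0.86, SE 0.21, adjusted p = 0.0322). *Ndrg1* read 9.01 and 9.03 in naïve CD4+ and 7.82 and 7.94 in naïve CD8+ cells against 12.64 and 12.67 and 12.38 and 12.31 in the TEM cells (-0.83, SE 0.17, adjusted p = 0.0195). *Pkm* read 11.50 and 11.51, 12.99 and 12.94, 12.83 and 12.84, 10.99 and 10.87, and 13.05 and 13.03 in the order of *P4ha1* (-0.65, SE 0.17, adjusted p = 0.046). For *Ndrg1* and *Pkm* the lineages lay further apart as naïve cells than as TEM cells. These calls rest on few arrays, and 0 of the 7 were kept under every alternative run. With each array left out, the difference for *Hk2* stayed between 1.58 and 2.24.

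**Figure D3:**
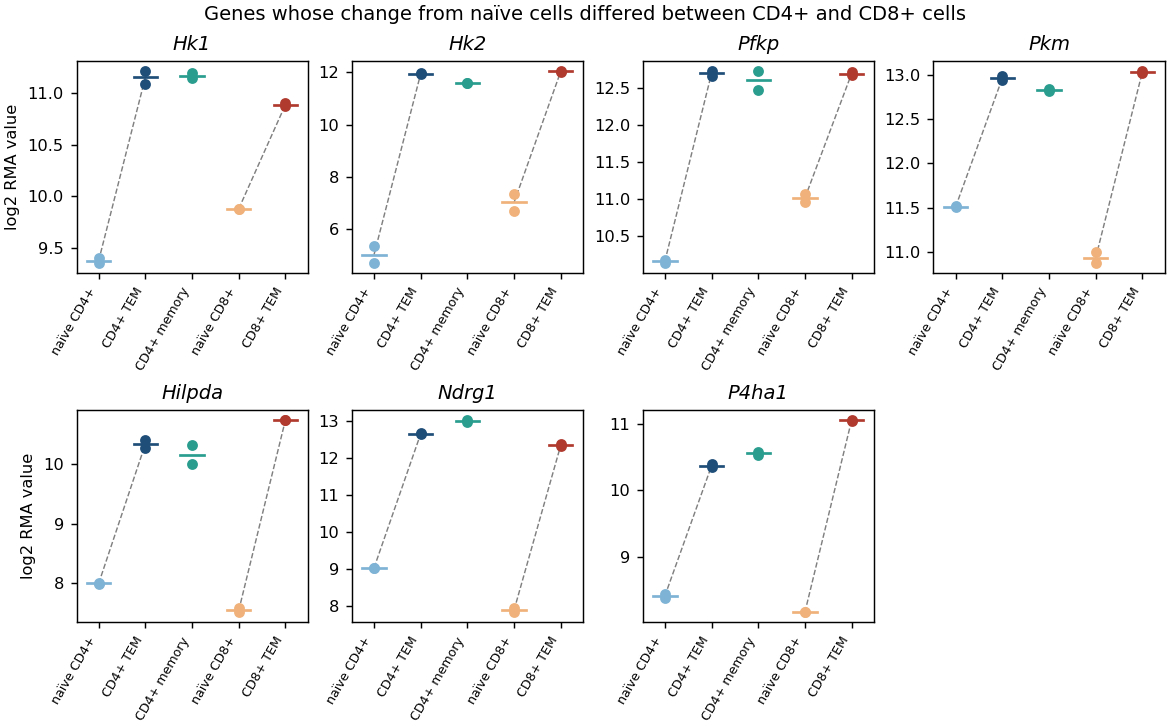
Log2 RMA values of the 7 genes whose change from naïve to TEM cells differed between the lineages, with a point for each array, a short line for the group mean and dashed lines from naïve to TEM means. The axes do not start at 0 and differ between genes. The TEM means of *Hk2*, *Pfkp* and *Pkm* differ by at most 0.09 between lineages while their naïve means differ by 0.58 to 2.0.

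Other probe sets of the same transcripts were read as a check. Of the 32 genes 19 had several probe sets, and of the 38 others 34 changed in the same direction as the probe set used in CD4+ TEM, 36 in CD8+ TEM and 35 in memory cells. *Pfkl* had the clearest conflict, with 2 probe sets at 2.40 and 2.42 in CD4+ TEM cells and a further probe set at -1.17. *Pdk1* read -0.45, 0.13, -0.42 and -0.86 on its 4 probe sets in CD4+ TEM cells and -0.31, -0.88, -0.20 and -1.14 in CD8+ TEM cells, so 1 of these 8 values was above 0. *Ero1a* rose by 4.0 and 4.73 on its other probe sets in CD4+ TEM cells, more than the 2.24 of the probe set used. *Ak4* rose by 6.47 on its next brightest probe set and by 0.30 to 0.94 on 3 dim ones. The difference between lineages for *Hk1* was 0.10 on its second probe set and that for *P4ha1* was -1.38. For *Pfkp* it was 1.18 and -1.86 on the other probe sets, and with the mean of its probe sets it was 0.06 (adjusted p = 0.939).

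**Figure D4:**
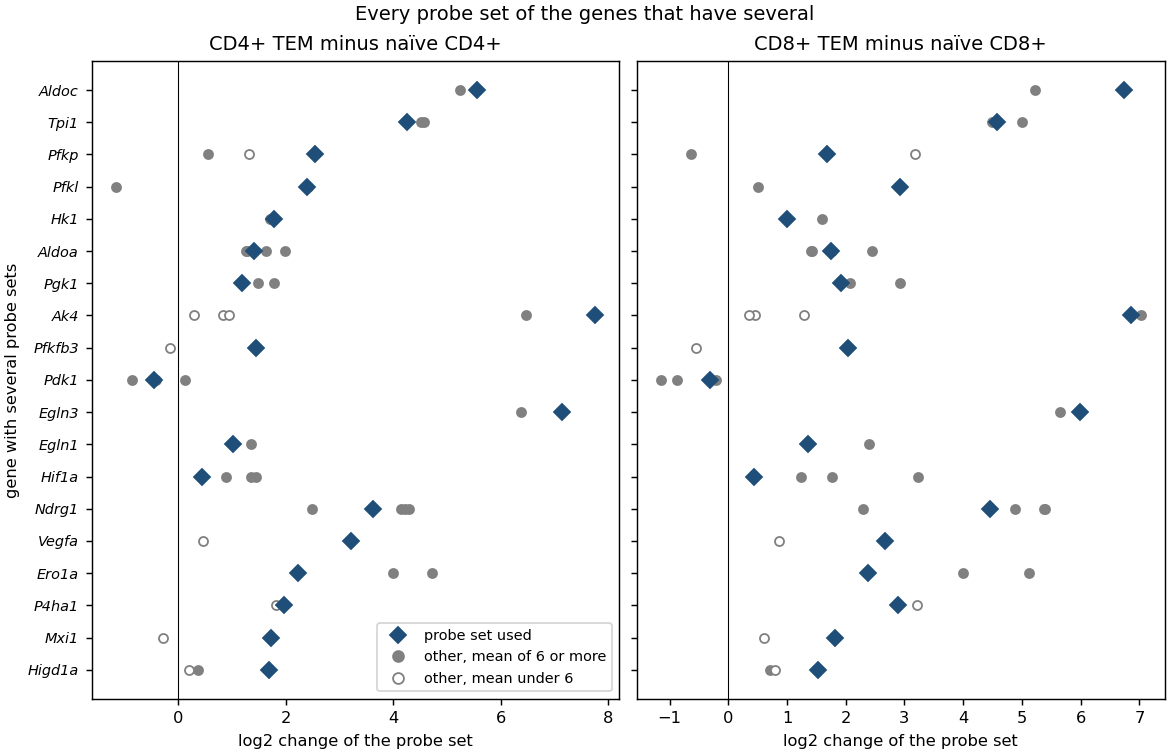
Log2 change in CD4+ TEM (left) and CD8+ TEM cells (right) on each probe set of the 19 genes that have several, with diamonds for the probe set used and circles for the others, open where the mean over the 10 arrays is under 6. Of the 38 circles 34 in CD4+ TEM and 36 in CD8+ TEM cells lie on the same side of 0 as their diamond.

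The rise extended to the carriers that bring in glucose and release lactate. Of 9 carrier genes 8 were higher in CD4+ TEM (16.4% of all genes), 7 in CD8+ TEM (20.9%) and 7 in memory cells (13.5%), and 0 were lower. *Slc16a3*, the lactate exporter MCT4, went from 4.85 and 4.95 to 11.26 and 11.22 in CD4+ TEM (6.34, SE 0.14, adjusted p = 1.57e-07) and from 5.55 and 5.39 to 11.60 and 11.76 in CD8+ TEM cells (6.21). *Bsg*, the chaperone of these transporters, rose by 2.82 and 3.36, *Slc2a3*, the glucose transporter GLUT3, by 3.08 and 2.27, and *Slc2a6* by 2.17 and 2.04. Of 24 further HIF targets, 4 of them on the carrier or glycogen lists too, 15 were higher and 1 lower in CD4+ TEM cells and 14 higher and 3 lower in CD8+ TEM cells. Over all genes 16.4% were higher and 10.1% lower in CD4+ TEM and 20.9% and 17.2% in CD8+ TEM cells. *Plod2*, a collagen lysyl hydroxylase, rose by 6.93 and 7.03, *Bhlhe40*, a circadian repressor, by 5.74 and 6.22 (from 8.06 and 4.54 on the naïve CD8+ arrays), and *Stc2*, a secreted glycoprotein, by 5.11 and 4.12. *Plod2* read 2.69 to 3.97 on the naïve arrays and *Stc2* 4.44 and 3.65 in naïve CD4+ cells, under the array medians. Changes from these values are no measured ratio of RNA. The medians over the 24 targets, 1.30 and 0.92, were below the 2.29 and 2.07 of the listed genes.

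Of 14 genes of gluconeogenesis and glycogen 6 were higher (16.4% of all genes) and 0 lower (10.1%) in CD4+ TEM cells. In CD8+ TEM cells 8 were higher (20.9%) and 2 lower (17.2%). The 2 lower were *Pygm* (-2.92, limma adjusted p = 0.00107) and *Ugp2* (-0.76, limma adjusted p = 0.0227). *Pygl*, glycogen phosphorylase, rose by 7.83 in CD4+ TEM (SE 0.32, adjusted p = 1.73e-06) and 6.80 in CD8+ TEM cells, *Gys1*, glycogen synthase, by 3.11 and 2.74, *Gbe1*, the branching enzyme, by 2.11 and 3.11, and *Pck2*, the mitochondrial PEP carboxykinase, by 1.86 and 3.17. *Pygl* read 3.07 and 3.12 in naïve CD4+ and 3.10 and 4.27 in naïve CD8+ cells. These values lay under the array medians, so its changes are no measured ratio of RNA. The pentose phosphate pathway had 3 of 7 genes higher in CD4+ TEM (16.4% of all genes) and 7 of 7 in CD8+ TEM cells (20.9%), with *Pgls* at 1.02 and 2.12, *Tkt* at 1.24 and 1.36 and *H6pd* at 1.04 and 0.72. *Rpe* changed by -0.15 (adjusted p = 0.587) in CD4+ and rose by 1.26 in CD8+ TEM cells, a difference of -1.41 (SE 0.23, adjusted p = 0.00813).

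Genes where pyruvate enters mitochondria did not move as a block. In CD4+ TEM cells 2 of 13 were higher (16.4% of all genes) and 3 lower (10.1%), and in CD8+ TEM cells 5 higher (20.9%) and 1 lower (17.2%). *Pcx*, pyruvate carboxylase, rose by 2.99 and 3.41, from naïve values of 4.28 to 4.92, near the array medians. *Pdk3*, another pyruvate dehydrogenase kinase, rose by 2.07 and 2.69, while *Pdp1*, the opposing phosphatase, fell by 1.24 in CD4+ TEM cells and changed by 0.28 (adjusted p = 0.491) in CD8+ TEM cells, a difference of -1.52 (SE 0.38, adjusted p = 0.0372). *Mpc1*, a pyruvate carrier subunit, changed by 0.46 (adjusted p = 0.0835) in CD4+ TEM and rose by 1.24 in CD8+ TEM cells. Among 13 other glycolytic enzymes, mostly forms of other tissues, 3 were higher and 3 lower in CD4+ TEM and 5 higher and 1 lower in CD8+ TEM cells, beside the same shares of all genes. *Eno3* rose by 1.55 and 0.52 and *Gapdhs* by 0.84 and 1.04, *Bpgm* fell by 1.09 in CD4+ TEM cells and *Pfkfb2* fell by 1.99 in CD8+ TEM cells. *Gapdhs* read 3.67 to 3.87 on the naïve and 4.56 to 4.78 on the TEM arrays, near or under the array medians, so its changes are no measured ratio of RNA.

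HIF partners and sensors outside the list were mixed. In CD4+ TEM cells 6 of 13 were higher (16.4% of all genes) and 3 lower (10.1%), and in CD8+ TEM cells 6 higher (20.9%) and 2 lower (17.2%). *Arnt2* rose by 2.43 and 3.13 and *Hif3a*, an antagonist of HIF-1, by 1.77 and 1.91. *Arnt2* read 3.32 to 3.68 on the naïve arrays, under the array medians, so its changes are no measured ratio of RNA. *Epas1*, which encodes HIF-2α, fell by 2.19 in CD4+ TEM cells (SE 0.53, adjusted p = 0.0164) and *Cited2*, a competitor for the HIF coactivator, by 1.73. In the MAX network, which shares the CACGTG site, 3 of 13 were higher and 2 lower in CD4+ TEM and 3 higher and 5 lower in CD8+ TEM cells, beside the same shares of all genes. *Arrdc4*, an arrestin induced by glucose through MondoA, rose by 5.53 in CD4+ TEM and 1.87 in CD8+ TEM cells, a difference of 3.66 (SE 0.48, adjusted p = 0.00338). It read 3.46 and 3.57 in naïve CD4+, under the array medians, and 6.37 and 7.55 in naïve CD8+ cells. In CD4+ TEM cells it read 9.10 and 8.99 and in CD8+ TEM cells 8.87 and 8.81. The difference thus lay mainly between the naïve groups, and it is no measured ratio of RNA. *Txnip*, a further target of MondoA, fell by 0.48 in CD4+ TEM (adjusted p = 0.0253) and by 0.69 in CD8+ TEM cells (adjusted p = 0.00292). *Mxd1* rose by 1.98 in CD4+ TEM cells, *Mxd3* by 1.35 in CD8+ TEM cells, and *Mlxip*, which encodes MondoA, fell by 1.33 in CD8+ TEM cells.

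**Figure D5:**
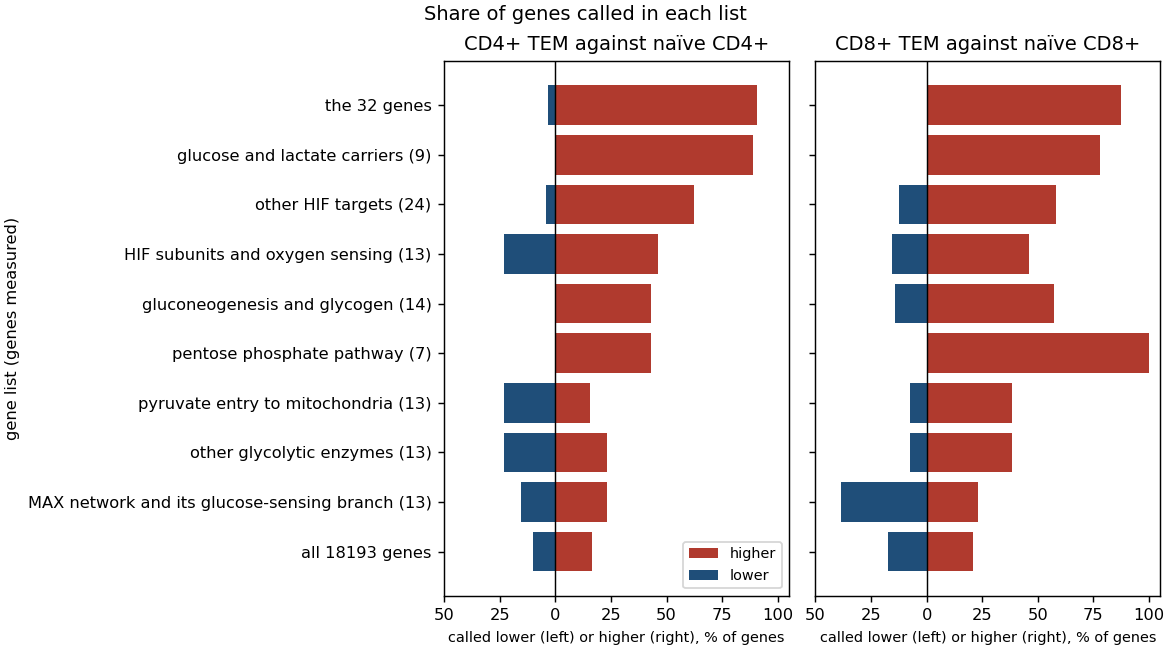
Percent of the measured genes of each list that were called lower (left of 0) or higher (right of 0) in CD4+ TEM and CD8+ TEM cells against their naïve cells, beside the 32 listed genes and all 18193 genes. The 32 genes and the glucose and lactate carriers have the largest shares higher in CD4+ TEM cells, and in CD8+ TEM cells the pentose phosphate pathway joins them with 7 of 7.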

How the data were processed

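RNA of 10 samples was hybridized to Affymetrix whole-genome mouse arrays. The deposited log2 values were made by the authors with RMA (background correction, quantile normalization and probe set summary) in the BRB-ArrayTools package (version not given in the sources used here), so values are relative within these arrays and a probe set's level cannot be set against that of another. Of 45101 probe sets, 64 controls, 932 with several symbols and 9160 unnamed here were left out. The remaining 34945 were named from the platform annotation, with 34741 symbols updated through RefSeq and 204 kept as annotated, and gave 18193 genes by the probe set of highest mean. Array medians were 4.65 to 4.75, and the number of arrays, 2 per group, limits the precision.

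Groups were taken from the sample source names. A group-means model over the 10 arrays (5 residual degrees of freedom) was fitted with limma 3.58.1 in R 4.3.3 with empirical Bayes moderation, for 7 comparisons. Two-sided p-values were adjusted by the Benjamini-Hochberg method over all 18193 genes, and a gene was called at an adjusted p under 0.05. A median or count over the list is a description. The genes and lists were chosen with earlier results of these data known. Values of every array are printed for the 5 largest called rises and falls in each comparison with naïve cells, for genes with a called difference between lineages and for *Hif1a*, and up to 4 called genes with the largest changes are named from each further list. Other genes named with values were chosen after their values were seen.

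The fit was tested on simulated data. Alternatives were the mean of a gene's probe sets, a filter on dim genes (a group mean of at least 6), quantile normalization, centering, a fit of the compared groups alone, a variance trend with robust fitting, a replicate block, a 2-fold limit and each array left out. Markers of T, B, myeloid, erythroid and NK cells were read beside the results. Of 8 measured myeloid markers 2 were higher in each of the 3 cultured groups than in naïve cells, and of 4 erythroid and 3 NK cell markers 0 were called in those comparisons.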

Additional observations from a re-analysis of the deposited data

Results flagged for a closer look

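A test of the difference between the naïve-to-TEM changes of the 2 lineages singled out 7 of the 32 genes, where 12.5% of all genes were called. The change was larger in CD4+ cells by 1.91 (log2) for *Hk2*, 0.86 for *Pfkp* and 0.77 for *Hk1*. It was larger in CD8+ cells for *P4ha1* (CD4+ minus CD8+ change -0.93), *Hilpda* (-0.86), *Ndrg1* (-0.83) and *Pkm* (-0.65). Adjusted p-values ran from 0.0116 for *P4ha1* to 0.046 for *Pkm*, and for all 7 genes both TEM arrays of each lineage lay above both naïve arrays. At an unadjusted p under 0.05 there were 14 such genes, among them *Pfkm* (1.45, adjusted p = 0.0555) and *Aldoc* (-1.18, adjusted p = 0.0549). None of the 7 calls was kept under every alternative.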

How the results depend on the processing

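The rises held widely: 27 of 30 calls in CD4+ TEM, 27 of 28 in CD8+ TEM and 27 of 30 in memory cells were kept under every alternative run, and 3 of 13 between naïve groups (*Hk2*, *Pfkm*, *Ndrg1*), 0 of 7 for the lineage difference and 0 of 2 between TEM groups. Leaving out an array gave 27 to 30 calls and a median of 2.16 to 2.32 in CD4+ TEM, 27 to 29 and 2.05 to 2.14 in CD8+ TEM, 27 to 30 and 2.13 to 2.18 in memory cells, 0 to 11 and -0.22 to -0.11 for the lineage difference, 0 to 0 and -0.007 to 0.041 for TEM minus memory, 5 to 15 and -0.23 to -0.12 between naïve groups, and 0 to 2 and 0.02 to 0.06 between TEM groups. The median for TEM minus memory turned to -0.007 without CD4+ memory replicate 2.

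Centering each array moved the medians to 1.702 (CD4+ TEM), 1.54 (CD8+ TEM), 1.75 (memory), -0.15 (TEM minus memory, reversed), -0.47 (naïve) and -0.20 (TEM groups, reversed), with 1 call for TEM minus memory (*Ndrg1*, -0.53, adjusted p = 0.0388) and 1 between TEM groups (*Ndrg1* again, -0.53, lower in CD8+, with both reported calls lost). Quantile normalization gave medians of 2.10 (CD4+ TEM), -0.29 (lineage difference), 1.99 (memory), -0.0062 (TEM minus memory) and -0.34 (naïve). The mean of probe sets gave medians of 1.79 (CD4+ TEM), 1.67 (memory), -0.047 (TEM minus memory) and 0.088 (TEM groups), with 1 call for TEM minus memory and 0 between TEM groups. The filter on dim genes gave 2.35 in CD4+ TEM cells. A variance trend with robust fitting gave 11 calls of a lineage difference, the compared groups alone gave 7 calls between naïve groups, and a 2-fold limit without a test passed 4 genes for the lineage difference, 8 between naïve and 0 between TEM groups. Single genes that reversed were *Pfkfb4* in CD4+ TEM cells (0.15 without naïve CD4+ replicate 1, 0.072 without CD4+ TEM replicate 2, and -0.21 at the lowest without naïve CD4+ replicate 2), *Hif1a* with centering (-0.16 in CD4+ TEM, -0.083 in CD8+ TEM), *Ero1a* for TEM minus memory with centering (-0.071), and between naïve groups *Pfkl* (-0.62 with the mean of probe sets, -0.090 with quantile normalization), *Vegfa* (-0.23) and *Ddit4* (0.094) without naïve CD8+ replicate 1, against 0.98 and -0.81 without naïve CD8+ replicate 2. *Pfkfb4* was called lower with quantile normalization (-0.60 in CD4+ TEM, -0.69 in CD8+ TEM) and with centering (-0.62, -0.79). The cause was not tested.

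Samples share a replicate number across groups, but same-numbered samples did not deviate together (correlations of -0.04 to 0.03), and the main fit did not pair them. Whether same-numbered samples came from the same animal or culture cannot be read from these correlations. A replicate block gave 29 calls in CD4+ TEM, 28 in CD8+ TEM, 30 in memory cells, 6 for the lineage difference, 12 between naïve groups, 2 between TEM groups and 0 for TEM minus memory. The block lost *Pdk1* in CD4+ TEM cells (adjusted p = 0.0576), *Pkm* (0.0677) and *Hilpda* (0.0508) for the lineage difference and *Egln1* between naïve groups (0.0628), and it added *Aldoc* to the lineage difference (0.0292).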
